A study of Mus musculus with 105 samples.

Results

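The 10 genes described here encode the contractile apparatus of heart muscle and its natriuretic hormones: the myosin heavy chains Myh6 and Myh7, the myosin light chains Myl2, Myl3 and Myl7, the thin filament genes Tnnt2, Tnni3 and Actc1, and the hormone genes Nppa and Nppb. They were taken by gene symbol from the deposited count table, in which each had 1 of the 53379 gene rows. No cut on measured values was used, but earlier results of these data were known when the genes were chosen. The series holds RNA-seq libraries from mice and mouse cells of strain C57BL/6. Heart, lung, skin and 9 other tissues (thymus, colon, stomach, ovary, kidney, liver, brain, spleen and lymph node, labelled LN) of healthy wild-type females gave 4 libraries each, 48 in all; the age of the mice was not given. Tumour lines gave 45 libraries in 3 conditions, a knockout of the histone H3 lysine 9 methyltransferase gene Setdb1 (Setdb1KO), a control labelled Ctrl and wild type (WT): 3 libraries per condition for B16 melanoma, MCA101OVA fibrosarcoma and MC38 colon adenocarcinoma, and 6 per condition for B16OVA melanoma. A further 7 libraries of WT lines had library codes that begin with B176, with 1 library per line, and 5 came from cultured melanocytes of healthy wild-type mice. Libraries whose codes begin alike are called a run here, which is a reading of the codes. The labels do not say whether a knockout line was 1 clone, nor whether libraries of a group came from separate mice or cultures, so p-values measure the spread between these libraries, which may be technical. Markers fitted the labels of the tissues most described: 5 lung epithelial genes summed to 35551 to 42281 CPM in lung and to at most 0.801 CPM in heart, and 5 epidermal genes to 20537 to 25271 CPM in skin and to at most 3.16 CPM in heart. Which chambers each heart library contained was not stated.

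Heart muscle shortens when myosin heads pull on actin filaments, and troponin on the actin filament lets this happen when calcium is high. Adult mouse ventricles use the fast heavy chain of Myh6, the slow chain of Myh7 prevails before birth and in slow skeletal muscle, and the regulatory light chain differs by chamber, with Myl7 in atria and Myl2 in ventricles. Atrial muscle stores atrial natriuretic peptide from Nppa, while Nppb encodes the B-type peptide, and both hormones promote salt excretion and relax vessels. In mice, cardiac muscle also extends from the left atrium into the walls of the pulmonary veins inside the lung.

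The promoters of 3 genes are shown, chosen for the contrast followed through the results. Myl7 and Nppa are the genes whose counts differed most between the 4 hearts. Nppb lies 13516 bases before Nppa on chromosome 4 and differed little. Each window runs 250 bases before to 50 after the RefSeq start, on the gene's own strand, in GRCm38.p6: Nppa at chr4:148000472-148000771 on the plus strand, Nppb at chr4:147985650-147985949 on the plus strand and Myl7 at chr11:5898733-5899032 on the minus strand. Capitals mark GATAA (the core bound by GATA factors), CATTCC (the core bound by TEAD factors) and TATAAA (the TATA box), searched on both strands.
Nppa promoter: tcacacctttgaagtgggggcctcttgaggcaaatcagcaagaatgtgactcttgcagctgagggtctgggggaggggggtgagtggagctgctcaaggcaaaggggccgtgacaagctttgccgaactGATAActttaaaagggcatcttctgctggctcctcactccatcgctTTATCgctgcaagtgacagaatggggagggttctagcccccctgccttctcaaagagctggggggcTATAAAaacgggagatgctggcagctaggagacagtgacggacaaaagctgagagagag
Nppb promoter: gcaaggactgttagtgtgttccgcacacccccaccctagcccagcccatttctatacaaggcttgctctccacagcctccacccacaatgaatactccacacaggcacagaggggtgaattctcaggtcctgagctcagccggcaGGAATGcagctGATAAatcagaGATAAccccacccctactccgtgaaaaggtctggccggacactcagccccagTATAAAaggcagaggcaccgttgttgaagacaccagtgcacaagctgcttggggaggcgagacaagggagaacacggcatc
Myl7 promoter: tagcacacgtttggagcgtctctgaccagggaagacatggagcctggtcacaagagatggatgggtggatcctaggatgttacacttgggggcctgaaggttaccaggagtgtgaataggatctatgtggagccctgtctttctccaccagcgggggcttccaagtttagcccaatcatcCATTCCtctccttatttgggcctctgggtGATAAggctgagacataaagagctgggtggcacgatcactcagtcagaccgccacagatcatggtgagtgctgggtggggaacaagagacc
All 10 genes had a window in the RefSeq table. GATAA stood in the Nppa, Nppb and Myl7 windows, against 25.4% of 32851 promoter windows of the same length; CATTCC stood in those of Nppb and Myl7, against 14.7%; TATAAA stood in those of Nppa and Nppb, against 13.6%. GATAA also stood in the windows of Myl2, Myl3, Tnnt2 and Tnni3. CATTCC also stood in those of Myh6, Myh7, Myl3 and Tnnt2, and TATAAA in those of Myh6, Myl2 and Actc1. These matches describe letters only.

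In units of 1000000 counts, library totals were 53.6 to 254 in the tissues, 17.2 to 50.4 in the tumour lines of the 3 conditions, 36.2 to 58.2 in run B176 and 19.9 to 30.6 in melanocytes. Values are given as CPM, counts per 1000000 counts of the library, and, for comparisons between genes, as CPM per kb of summed exon length. The 4 hearts held 109.9, 67.8, 99.9 and 99.5 of these units, of which the 10 genes took 6.17, 5.77, 5.96 and 5.65%. Setdb1 counts were lower in knockouts than in Ctrl in B16, B16OVA and MCA101OVA (log2 folds -1.85, -1.18 and -1.40), and the MC38 libraries labelled Setdb1KO did not pass the test (-0.52, edgeR adjusted p = 1).

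The 4 hearts differed: Myl7 and Nppa were at high levels in hearts 2 and 3 and far lower in hearts 1 and 4, while Tnnt2, Actc1, Tnni3 and Myh6 were nearly level. Tnnt2, the troponin subunit that anchors the complex on tropomyosin (chromosome 1, 135836354 to 135852260, plus strand, GRCm38 as for all gene positions), had 8192, 8024, 6693 and 7379 CPM in hearts 1 to 4. The highest heart was 1.22 times the lowest for Tnnt2. Actc1, the cardiac actin (chromosome 2, 114047282 to 114053548, minus strand), had 9970, 10689, 7962 and 9195 CPM, a spread of 1.34 times. Tnni3, the inhibitory troponin subunit (chromosome 7, 4518305 to 4524229, minus strand), had 3375, 3719, 2747 and 3669 CPM. Heart 3 was the lowest of the 4 for all 3 thin filament genes.

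Myl7 (chromosome 11, 5896637 to 5898782, minus strand), the atrial light chain, had 0.182, 1126, 1699 and 2.04 CPM in hearts 1 to 4. These were 20, 76359, 169674 and 203 counts, so that heart 3 stood 9331 times above heart 1. Nppa (chromosome 4, 148000722 to 148002079, plus strand) had 92.4, 4310, 7017 and 155 CPM, a ratio of 75.9 between heart 3 and heart 1. The order of the 4 hearts was the same for both genes, heart 1 lowest, then 4, 2 and 3. Per kb of exon, hearts 1 and 4 held levels of 107 and 179 CPM per kb for Nppa and of 0.309 and 3.46 CPM per kb for Myl7. Neither gene was at 0 in any heart.

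**Figure D1:**
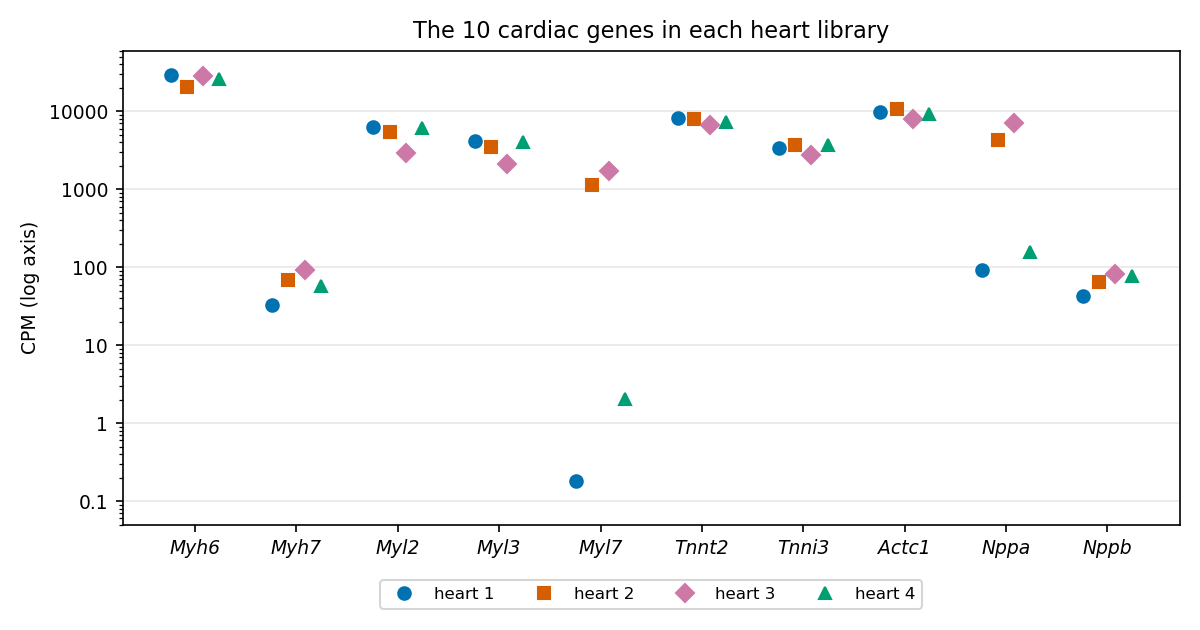
Levels of the 10 genes in the 4 heart libraries, in CPM on a log axis, 1 point per library and gene. Hearts 2 and 3 lie above 1000 CPM for Myl7 while hearts 1 and 4 lie at 0.182 and 2.04 CPM; Nppa shows the same order over a smaller range, and Tnnt2 the narrowest range.

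The ventricular light chains ran lower where Myl7 was highest, by a smaller factor. Myl2 (chromosome 5, 122100951 to 122113472, plus strand), the ventricular regulatory chain, had 6256, 5480, 2930 and 6054 CPM in hearts 1 to 4. Myl3 (chromosome 9, 110741861 to 110769798, plus strand), the essential chain of ventricles and slow muscle, had 4187, 3470, 2119 and 4108 CPM. Heart 3 was lowest for both, at 2.14 times below heart 1 for Myl2 and 1.98 times for Myl3, and no heart lacked either gene.

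Myh6 (chromosome 14, 54941921 to 54966927, minus strand) had 29542, 20742, 28211 and 25757 CPM in the 4 hearts and Myh7, which lies 3756 bases away (54970684 to 54994626, minus strand), had 32.7, 69.2, 93.4 and 57.6 CPM. Heart 1 was highest for Myh6 and lowest for Myh7. These near-identical genes can exchange reads, and exons of the antisense transcripts Mhrt (heart mean 102 CPM) and Gm49130 (20.1 CPM) overlap Myh7 and Myh6; the strand setting of the counting was not given, so the low Myh7 values are uncertain. Nppb (chromosome 4, 147985788 to 147987205, plus strand) had 43.001, 63.95, 82.1 and 77.2 CPM, a spread of 1.91 times, and did not follow the 75.9-fold range of its neighbour Nppa. An antisense transcript overlapping Nppa, Gm13054, reached at most 15.03 CPM in a heart.

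Per kb of summed exon length, the level of Actc1 was the highest of the 10 on average, at 5843 ± 721 CPM per kb (SD, n = 4 here and for the next values), ahead of Myh6 at 3875 ± 577 and Nppa at 3345 ± 3912. Nppa exceeded Actc1 in heart 3 alone, at 8112 against 4921 CPM per kb. Myh7 was lowest, at 7.34 ± 2.93 CPM per kb. The order depended on the length used: Tnnt2 averaged 977 ± 88.1 CPM per kb of summed exons but 6310 ± 569 CPM per kb of its principal transcript.

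Other genes that mark chambers were looked up as whole lists. Of 8 other atrial genes, Myl4, Sln, Bmp10 and Pam among them, heart 3 was the highest heart for 7, and their summed level was 503, 3691, 7506 and 611 CPM in hearts 1 to 4. Bmp10, a growth factor of atrial muscle, had 0, 376, 1085 and 0.181 CPM, and Sln, the atrial calcium pump regulator sarcolipin, had 0.018, 246, 434 and 0.362 CPM. Both were near 0 in hearts 1 and 4 and abundant in hearts 2 and 3. Pam, which amidates peptide hormones and is a major protein of atrial granules, had 454, 1996, 3923 and 556 CPM. Kcna5, a potassium channel gene of the list, did not follow, with 26.8, 17.5, 22.4 and 29.4 CPM. Of 4 other ventricular genes, Pln (phospholamban), Irx4 and Lbh were highest in heart 4 and lowest in heart 3, and Hey2 ran the other way, at 5.83, 8.01, 8.76 and 6.70 CPM.

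The fat, mesothelial and Schwann cell lists, picked after their values were seen, moved with the atrial genes across the hearts. They were not alone in this. Heart 3 was also the highest heart for 10 of 13 cardiac transcription factors, 8 of 9 natriuretic pathway genes and 12 of 21 skeletal muscle genes. Heart-by-heart values of the endothelial, fibroblast, smooth muscle, macrophage and red blood cell lists are not given here. All 4 fat genes (Adipoq, Plin1, Cidec and Ucp1) were highest in heart 3, and their sum was 0.073, 79.2, 185 and 3.46 CPM in hearts 1 to 4. All 4 epicardial and mesothelial genes were also highest in heart 3, with sums of 4.57, 41.1, 71.5 and 6.81 CPM, as were all 3 Schwann cell genes, with 7.26, 16.1, 22.2 and 8.92 CPM. Upk3b, a mesothelial marker, was at 0.209 and 0.101 CPM in hearts 1 and 4, and none of these genes was at 0 in a heart. Their part in the Myl7 and Nppa levels was not tested. All 4 hearts were of 1 run by their library codes, and in bulk tissue fewer cells of a type and less RNA per cell cannot be told apart.

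**Figure D2:**
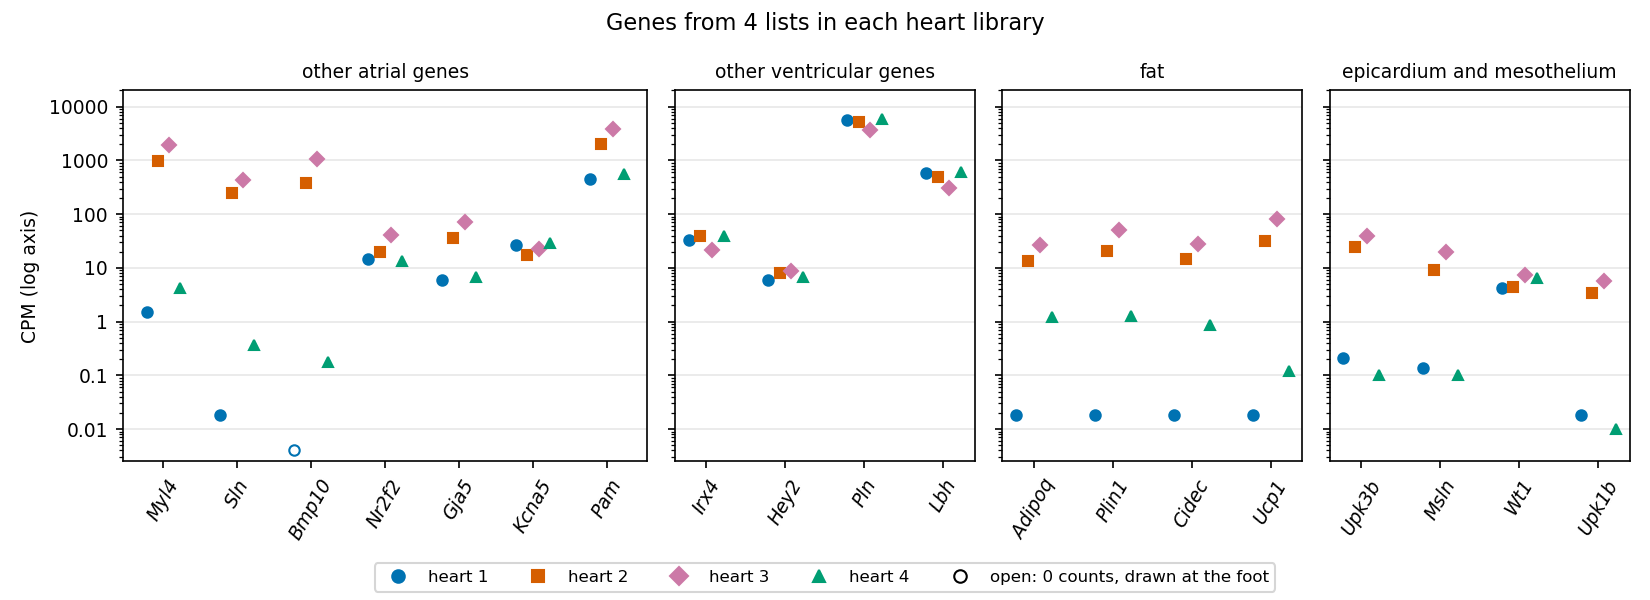
Genes from 4 lists in the 4 heart libraries, in CPM on a log axis, 1 point per library; open points at the foot stand for 0 counts. Most atrial, fat and mesothelial genes lie higher in hearts 2 and 3, with Bmp10 at 376 and 1085 CPM there and at 0 and 0.181 CPM in hearts 1 and 4, whereas the ventricular genes Pln, Irx4 and Lbh lie close together.

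By a fixed likeness rule, the genes whose means over the 12 tissues were most like those of Myl7 were Mybphl (Pearson r = 0.956 of log2 (mean CPM + 1)), Ankrd1 (0.921), Tbx5 (0.908), Tecrl (0.907) and Myzap (0.900). Mybphl, which encodes a myosin-binding protein H-like protein, had 0.082, 172, 308.8 and 0.282 CPM in hearts 1 to 4. Ankrd1 (547, 846, 1041 and 603 CPM) and Tbx5 (31.8, 81.8, 182 and 28.6 CPM) were also highest in heart 3, while Tecrl (50.1, 41.3, 44.1 and 43.2 CPM) was highest in heart 1 and Myzap (165, 161, 126 and 172 CPM) was lowest in heart 3. Those most like Myl2 were Yipf7 (0.989), Smco1 (0.987), Asb10 (0.977), Trim55 (0.976) and Rpl3l (0.969). The 12 means share their libraries, and r is given as a description.

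Heart exceeded the mean of the other tissues for every one of the 10 genes. In edgeR's quasi-likelihood fit over 48 tissue libraries and 26242 genes, all 10 rose in heart against the mean of the 11 other tissues, where a call needs a Benjamini-Hochberg adjusted p under 0.05 and a log2 fold of at least 2; 9.08% of all genes were called higher. Log2 folds (standard errors) ran from 5.88 (0.48) for Myh7 to 16.92 (0.64) for Nppa, with 16.32 (0.68) for Myh6, 15.26 (0.59) for Myl2 and 9.76 (0.21) for Tnni3, and the largest edgeR adjusted p was 6.7e-14. Folds of this size rest on tissues at or near 0 counts and depend on edgeR's prior count, so ratios to the tissue with the highest mean among the others are given. The heart mean was 523 times the skin mean for Myl3, 344.6 times the thymus mean for Nppb, 233 times the thymus mean for Nppa and 230 times the skin mean for Myl2. For Tnnt2, Myh6, Actc1, Tnni3 and Myl7 the ratio was 101 (lung), 95.4 (lung), 65.3 (lung), 21.4 (stomach) and 15.3 (lung). Single libraries set the ratios of Nppa and Myl7: Nppa stood at 122 without heart 3 and 1529 without thymus 2, and Myl7 at 8.16 without heart 3.

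Myh7 was the exception by level. It averaged 63.2 ± 25.3 CPM in heart, against 66.1 ± 26.8 CPM in skin (SD, n = 4 each), and their ranges overlapped. Every heart library exceeded every library of the other tissues for 8 of the 10 genes, not for Myh7 and not for Myl7, for which hearts 1 and 4 lay below all 4 lungs. In the tissue order, the hearts were first for the other 9 genes by their means, and only Myl7 and Myh7 overlapped with the next tissue.

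The other genes of the cardiac programme were read from lists. Among 25 other sarcomere and calcium handling genes all 25 rose in heart (median log2 fold 9.33, against -0.289 over all genes tested), from Myoz2 (12.67) and Csrp3 (12.66), both of the Z-disc, to Des (5.03) and Nebl (5.02). Of 13 cardiac transcription factors 8 rose (median 3.71), led by Nkx2-5 (11.80) and Tbx20 (11.75), and the lowest were Mef2d (1.12) and Mef2c (1.43), not called. Of 9 genes of natriuretic signalling 3 rose (median 0.664), among them Corin (8.44), the protease that activates the Nppa product, and Npr3 (3.02), the clearance receptor; the degrading enzymes Mme (-0.28) and Pde5a (-0.84) were lowest and not called. Among the other atrial genes 7 of 8 rose (median 4.49; Bmp10 14.63, Sln 9.93, Nr2f2 -0.51 not called) and all 4 other ventricular genes rose (Pln 11.49, Irx4 8.65, Lbh 2.82, Hey2 2.01).

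Lung carried most of the 10 genes, but hardly any of the ventricular regulatory light chain Myl2. Set against the mean of the 10 other non-heart tissues, 8 of 10 rose in lung, against 10.8% of all genes, and 0 fell, against 3.82%; Myl2 and Nppb were not called. Myh6 had 267, 299, 393 and 134 CPM in lungs 1 to 4, Actc1 had 128, 150, 211 and 90.9 CPM and Tnnt2 had 76.4, 74.2, 109 and 39.4 CPM. Each of these was above every other non-heart library, save that thymus 3 reached 50.1 CPM for Tnnt2, above lung 4.

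Myl7 had 44.6, 48.6, 66.04 and 25.04 CPM in lungs 1 to 4, while Myl2 had 0.121, 0.072, 0.036 and 0.276 CPM, 14, 6, 3 and 36 counts. Lung 3 was highest for Myl7 and lowest for Myl2, and lung 4 the reverse. The log2 folds against the 10 other non-heart tissues were 6.73 (SE 0.54, edgeR adjusted p = 6.9e-14) for Myl7 and -0.93 (SE 1.07, adjusted p = 0.502) for Myl2. Among the rest, Myh6 (9.77), Nppa (8.71), Actc1 (7.70), Myh7 (4.31), Tnnt2 (3.67), Myl3 (3.49) and Tnni3 (2.41) rose. Nppb (1.15, edgeR adjusted p = 0.11) was at 0.018 ± 0.017 CPM in lung (SD, n = 4).

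Nppa varied most, with 6.02, 22.4, 7.72 and 0.367 CPM in lungs 1 to 4. Myh7 had 22.4, 37.3, 25.8 and 27.5 CPM, and Tnni3 had 32.4, 33.2, 44.7 and 19.1 CPM. Lung 4 was lowest for Nppa, Myh6, Actc1, Tnnt2, Tnni3 and Myl7 but not for Myh7; it was the only lung of run D804, the other 3 being of run D812, so 1 library stands for that run and the run's part was not tested.

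Genes of the same lists rose in lung as well. Of 25 other sarcomere and calcium genes 15 rose (Csrp3 5.86, Myoz2 5.68), Atp2a2 (0.36) and Myh7b (-1.36) being lowest. Of 13 cardiac transcription factors 5 rose (Tbx5 10.21, Tbx20 5.88) and of 9 natriuretic pathway genes 5 (Npr3 4.37, Pde5a 3.72). Of 8 atrial genes 3 rose (Sln 5.50, Gja5 4.61) and of 4 ventricular genes 1 (Pln 2.16). The lowest in these lists were Hand1 (-4.26), Nppc (-1.17), Bmp10 (-2.02) and Irx4 (-5.79), none of them called. In heart against its 11 other tissues, Tbx5 (10.06), Npr3 (3.02), Pde5a (-0.84) and Gja5 (3.92) had smaller log2 folds than in lung. Csrp3 (12.66), Myoz2 (12.67), Tbx20 (11.75), Sln (9.93) and Pln (11.49) had larger ones. The references differ, since that of heart includes lung and that of lung leaves heart out. These folds therefore do not rank lung against heart. Tbx5 had 31.8, 81.8, 182 and 28.6 CPM in hearts 1 to 4, beside a lung mean of 78.2 CPM. Myl4, the atrial essential light chain, had 51.4, 41.5, 67.3 and 28.1 CPM in lungs 1 to 4. Bmp10 had 0, 0, 0 and 0.015 CPM in the same libraries, against 376 and 1085 CPM in hearts 2 and 3. The skeletal muscle list was not raised with them: of its 21 genes 1 rose and 5 fell in lung, and its sum ran between 23.99 and 47.1 CPM.

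**Figure D3:**
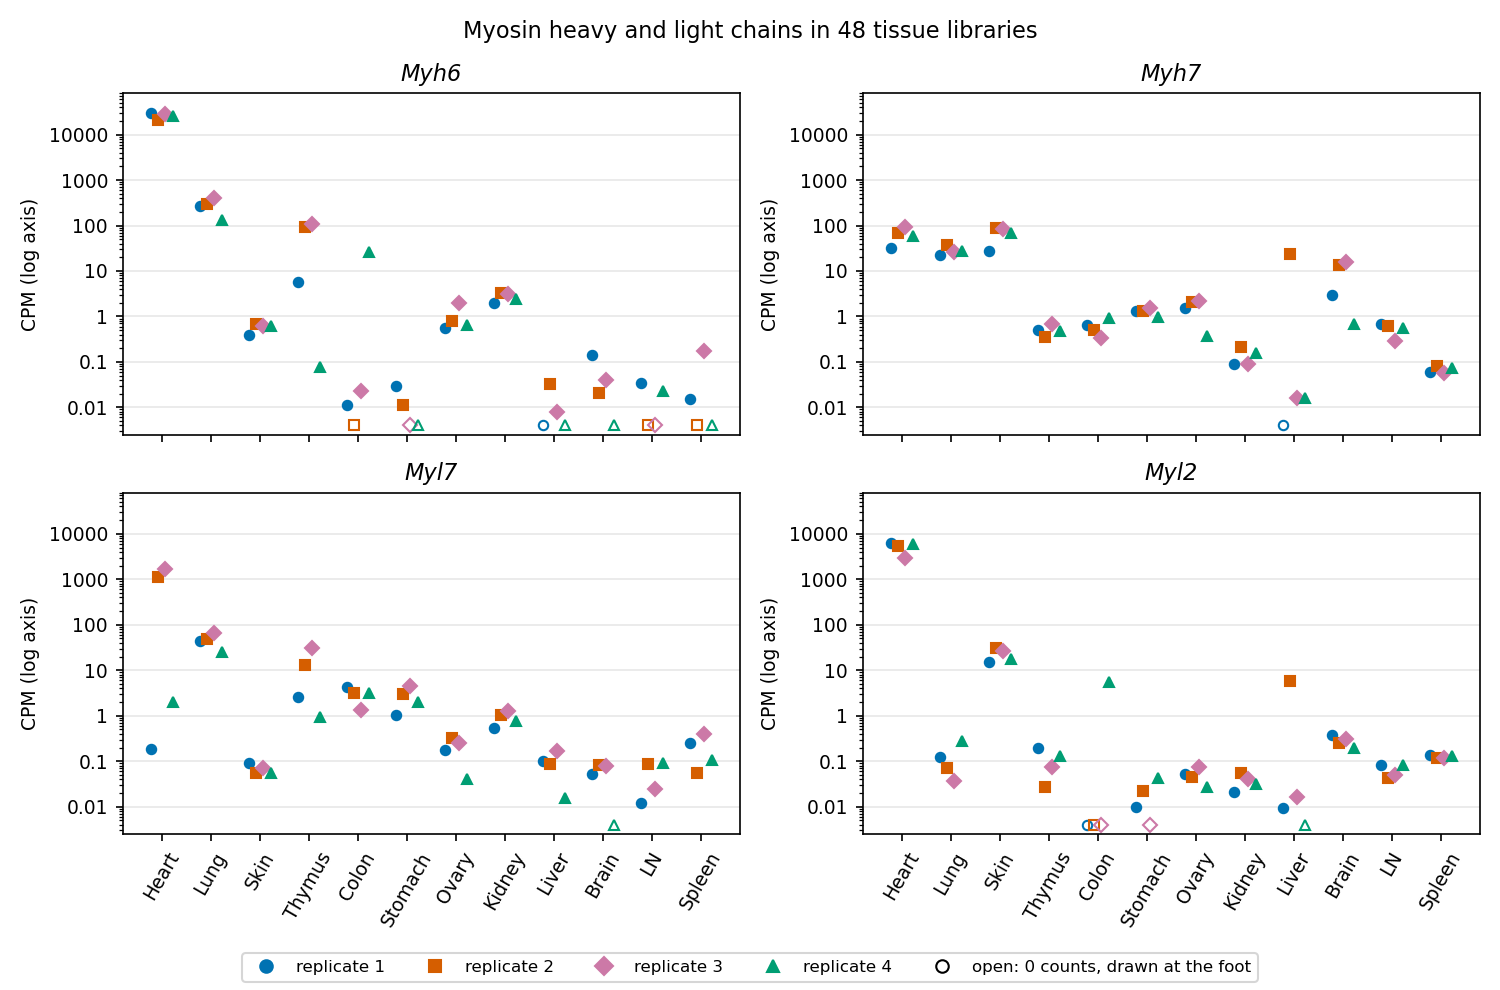
Levels of Myh6, Myh7, Myl7 and Myl2 in the 48 tissue libraries, in CPM on a log axis, 1 point per library, heart at the left; open points at the foot are libraries with 0 counts. Lung holds Myh6 and Myl7 but Myl2 under 0.3 CPM, skin holds Myh7 and Myl2 but little Myh6, and single libraries of thymus, colon and liver stand apart.

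Skin held the slow heavy chain Myh7 with Myl2 and little Myl7. Against the mean of the 10 other non-heart tissues 5 of the 10 genes rose, against 11.1% of all genes: Myl2 (log2 fold 7.08), Myh7 (5.58), Myl3 (4.85), Nppb (3.78) and Actc1 (2.81). Only Myl7 fell (-3.62, SE 1.36, edgeR adjusted p = 0.021), against 5.35% of genes lower, and without skin 2, 3 or 4 its edgeR adjusted p lay between 0.0502 and 0.0548. Myl7 had 0.056 to 0.091 CPM in the 4 skins.

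Myh7, the slow heavy chain, had 28.0, 86.9, 82.6 and 66.7 CPM in skins 1 to 4, Myl2 had 15.04, 30.9, 26.3 and 17.6 CPM and Myl3 had 6.83, 7.59, 6.96 and 5.18 CPM. For Myl2 and Myl3 the skins lay above every library of the other 10 non-heart tissues. Myh6 had only 0.392 to 0.690 CPM, and Nppa had 0 counts in all 4 skins. Nppb (0.115 ± 0.056 CPM, SD, n = 4) rested on 3, 9, 10 and 8 counts. The skeletal muscle list moved with these genes: all 21 of its genes rose in skin, led by Myh4 (15.62) and Myh1 (11.05), with Tnni1 (4.45) and Mybpc2 (4.30) lowest, and its sum was 6410 to 9687 CPM, against 23.99 to 47.1 CPM in lung. Its part in the Myh7, Myl2 and Myl3 levels was not tested. Actc1 in skin, at 7.63, 10.4, 3.93 and 6.25 CPM, is uncertain, since its near-identical copy Acta1 of skeletal muscle was at 727 to 1262 CPM there. Exons of Pth1r overlap Myl3 on the opposite strand, and kidney had 511 CPM of Pth1r beside 0.270 CPM of Myl3 (means, n = 4).

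Among the other lists in skin, 14 of 25 sarcomere and calcium genes rose and 2 fell (Lmod2 8.78, Csrp3 7.84, Pln -3.05, Ryr2 -3.55), and of the transcription factors 0 rose and 2 fell, Tbx5 (-3.75) among them. Of the atrial genes 3 rose, Sln (6.03) being highest, and of the natriuretic pathway Corin rose (6.76) and Pde5a fell (-2.06). Of the 4 ventricular genes Irx4 rose (7.84) and Pln fell. The lower Pln and Ryr2, which serve cardiac calcium release and uptake, are counted in the same list as the raised structural genes.

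Within-library shares of paired genes do not depend on library size and were compared between tissues, per kb of summed exon length. The Myl7 share of Myl7 plus Myl2 was 99.92, 99.96, 99.98 and 99.67% in lungs 1 to 4, and 1.97, 0.596, 0.882 and 1.04% in skins 1 to 4. In hearts 1 to 4 it was 0.0096, 40.4, 65.7 and 0.111%. Hearts 2 and 3 lay between the skins and the lungs, and hearts 1 and 4 below every skin. The skin shares rest on few Myl7 counts, since skin Myl7 was 0.056 to 0.091 CPM and 3 counts make 0.039 CPM in skin 1 and 0.056 CPM in skin 2. By counts alone the heart shares were 0.0029, 17.05, 36.7 and 0.0337%, with exact 95% intervals of 0.0018 to 0.0045% for heart 1 and 36.6 to 36.8% for heart 3, which cover counting error only.

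Lung averaged 99.9 ± 0.145% against 26.6 ± 32.3% in heart (SD, n = 4 each), and each lung exceeded each heart (two-sided exact permutation p = 0.0286, the smallest that 4 against 4 allows; adjusted over 6 share comparisons 0.0429). Skin at 1.12 ± 0.595% was not separated from heart (exact permutation p = 0.429). The Myh6 share of Myh6 plus Myh7 was 93.9, 91.1, 95.1 and 86.2% in lungs 1 to 4, 1.76, 1.01, 0.936 and 1.19% in skins 1 to 4 and 99.7 to 99.9% in the hearts. Every lung and every skin lay below every heart for this share (exact permutation p = 0.0286, adjusted 0.0429 for each).

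The Nppa share of Nppa plus Nppb was 99.8, 99.9, 100 and 89.7% in lungs 1 to 4. Skin had 0 Nppa counts beside 3, 9, 10 and 8 Nppb counts, so its share was 0% in all 4 libraries. In hearts 1 to 4 the share was 65.997, 98.4, 98.7 and 64.4%. Every skin lay below every heart (exact permutation p = 0.0286, adjusted 0.0429), while the lungs overlapped the hearts, at 97.3 ± 5.13% in lung and 81.9 ± 19.3% in heart (SD, n = 4 each; exact permutation p = 0.171, adjusted 0.206).

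**Figure D4:**
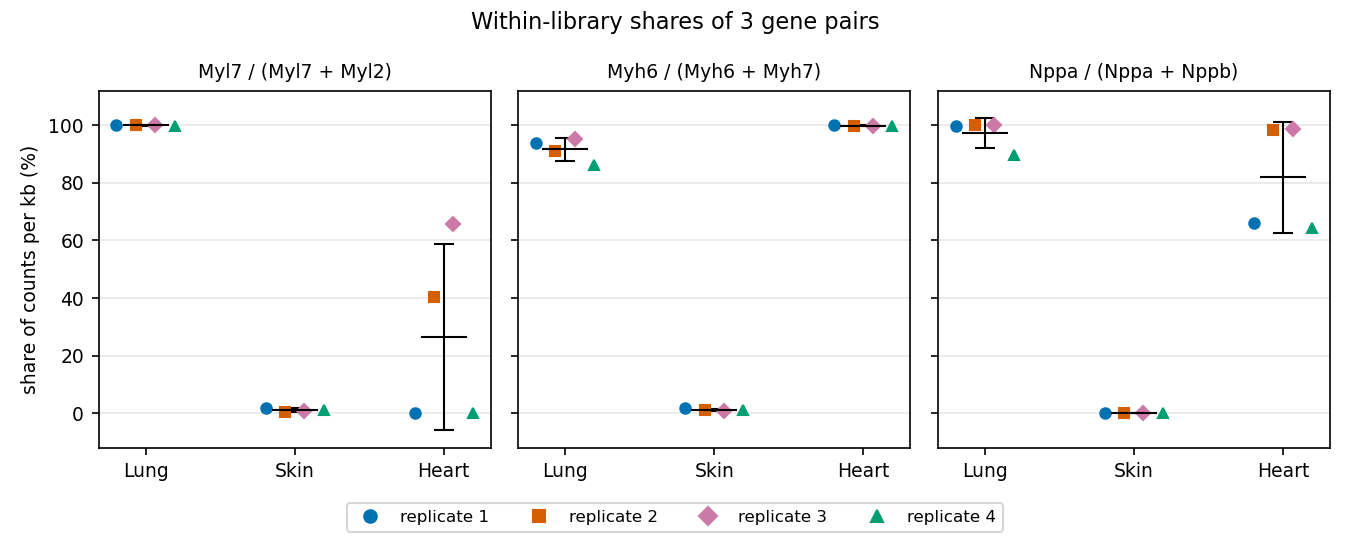
Within-library shares, in percent of counts per kb, of Myl7 in Myl7 plus Myl2, Myh6 in Myh6 plus Myh7 and Nppa in Nppa plus Nppb, 1 point per library, with bars for the mean and SD of 4 libraries. The lungs lie at 99.7% or above in the Myl7 panel and the skins at 1.97% or below, and the hearts are spread between 0.0096 and 65.7%.

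Smaller amounts appeared elsewhere, often in single libraries. Members called higher against the mean of the other 10 non-heart tissues numbered 5 in thymus (13.9% of all genes), 4 in colon (11%), 3 in liver (9.86%), 2 in stomach (10.1%), 1 in ovary (11.9%), 1 in kidney (10.5%), 1 in brain (17.5%), 0 in lymph node (10.1%) and 0 in spleen (10.6%). Members called lower numbered 5 in brain, 4 each in kidney, lymph node and spleen, and 3 in liver. Thymus and stomach had 1 each, and colon and ovary 0. The shares of all genes called lower in these tissues are not given here, so these counts are not read as a result.

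In thymus, Myh6 had 5.62, 92.1, 109.6 and 0.077 CPM in libraries 1 to 4, Myl7 had 2.54, 13.2, 31.5 and 0.919 CPM and Nppa had 1.12, 43.97, 4.21 and 0.345 CPM. Thymus 2 and 3 were the high ones for these genes and for Actc1 (2.46, 21.2, 49.9 and 0.291 CPM), but not for Myl2 (0.191 CPM in thymus 1 and at most 0.1302 CPM in the others) or Myh7 (0.353 CPM in thymus 2, the lowest). The pair share was near that of lung, with Myl7 at 97.8, 99.9, 99.9 and 95.9% of Myl7 plus Myl2 per kb. Low Myl7 with still less Myl2 was also found in stomach (means of 2.63 and 0.019 CPM) and kidney (0.894 and 0.037 CPM), so such a share was not particular to lung and thymus. All 4 fat genes were highest in thymus 2 or 3, with sums of 51.2, 338.2, 368 and 34.2 CPM, and Ucp1, the brown fat uncoupling protein, had 5.03, 117, 133 and 0.276 CPM. So were all 4 epicardial and mesothelial genes (sums of 21.3, 45.5, 48.7 and 19.1 CPM), all 3 Schwann cell genes (3.32, 8.46, 10.02 and 3.58 CPM) and all 9 natriuretic pathway genes. Their part in these levels was not tested. Nppb was called higher in thymus (log2 fold 4.55) at 0.193 ± 0.112 CPM (SD, n = 4).

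Colon 4 alone among the colons held Myh6 with the ventricular light chains, at 26.0 CPM of Myh6, 5.57 CPM of Myl2 and 3.29 CPM of Myl3. The other 3 colons had at most 0.023 CPM of Myh6 and 0 counts of Myl2 and Myl3. Above the median of the other colons, colon 4 held 0.996, 1.08, 0.948, 0.986, 0.839, 0.776 and 0.644 per 1000 of the heart mean for Myh6, Myl2, Myl3, Actc1, Tnni3, Tnnt2 and Nppb. Myh7 at 6.77 and Nppa at 0.073 per 1000 lay outside that range. Nppa depended on the heart used, at 2.29, 0.049, 0.030 and 1.37 per 1000 of hearts 1 to 4. The Nppb value rested on 4 counts. Tnnt2 in colon 4, at 9.45 CPM, lay below another colon at 13.7 CPM. Myl7 in colon 4, at 3.15 CPM, lay within the other colons' 1.33 to 4.33 CPM. Colon 4 was the only colon of run D804, and the run's part was not tested.

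Liver 2 held Myh7 at 23.3 CPM, Myl2 at 5.91 CPM and Myl3 at 2.48 CPM, against at most 0.016, 0.016 and 0.063 CPM in the other 3 livers. Its Myh6, Nppa and Nppb levels were 0.032, 0 and 0 CPM. All 21 skeletal muscle genes were highest in that liver, which summed to 763 CPM of them against 16.7 to 24.5 CPM in the others. All 3 Schwann cell genes were highest there too, with sums of 2.81 CPM in liver 2 and 1.44 to 2.07 CPM in the others. The part of these genes, and the calls in liver without this library, were not tested.

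Tnni3 was also called in stomach and ovary. It had 175, 230, 58.3 and 167 CPM in stomachs 1 to 4 (log2 fold 5.64, SE 0.22, edgeR adjusted p = 4.4e-24) and 21.6, 46.5, 48.8 and 81.4 CPM in ovaries 1 to 4 (2.79, SE 0.25, edgeR adjusted p = 1.4e-12). All 4 stomachs were above every library other than heart and ovary 4, and stomach 3 lay below ovary 4. The gene Dnaaf3, whose exons overlap Tnni3 on the same strand, averaged 2.18 CPM in stomach, 11.7 CPM in ovary and 8.74 CPM in heart; reads of the overlap cannot be assigned between them from these counts. Brain Myh7 was uneven (3.01, 13.8, 15.5 and 0.671 CPM), while kidney held Myh6 at 2.01 to 3.24 CPM, colon Myl7 at 1.33 to 4.33 CPM and stomach Myl7 at 1.02 to 4.44 CPM in all 4 libraries of each.

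In culture the cardiac set was nearly silent except for Tnnt2 and Nppb. Over the 57 libraries of tumour lines and melanocytes, Tnnt2 reached 1 CPM in 38 and Nppb in 47, and neither was at 0 in any. Myl2 and Tnni3 reached 1 CPM in 1 library each and the other 6 genes in none; Myh6 was at 0 in 51 libraries, Myl7 and Actc1 in 49 each, Nppa in 47, Myl3 in 46 and Myh7 in 34.

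Outside run B176, Tnnt2 was high in MCA101OVA and MC38, and Nppb in B16OVA and B16. Tnnt2 had 66.1, 73.7 and 36.8 CPM in MCA101OVA WT libraries 1 to 3, against 1.13, 1.47, 2.99, 0.924, 0.272 and 0.765 CPM in B16OVA WT libraries 1 to 6 and 139, 96.6 and 64.96 CPM in MC38 WT. Nppb had 0.790, 2.97 and 0.393 CPM in MCA101OVA WT, against 37.7, 83.8, 49.4, 9.2, 47.4 and 24.6 CPM in B16OVA WT and 2.07, 1.19 and 1.72 CPM in MC38 WT. B16 WT resembled B16OVA in order of size, with 0.851 ± 0.604 CPM of Tnnt2 and 36.8 ± 2.36 CPM of Nppb (SD, n = 3). The WT libraries of B16OVA listed here did not overlap with those of MC38 or MCA101OVA for either gene. In run B176, left out of these values, MC38 had 0.068 CPM and MC38GFP 0.190 CPM of Tnnt2, near B16OVA at 0.166 CPM, and Nppb was at 1.83 CPM in B16 against 3.80 CPM in MC38GFP.

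The WT contrasts were fitted between libraries that shared runs by their library codes, each with 3 of the 10 genes testable. Between MCA101OVA and B16OVA libraries 1 to 3, Tnnt2 was higher in MCA101OVA (log2 fold 5.14, SE 0.63, edgeR adjusted p = 1.98e-04; 8.9% of genes higher). Nppb (-5.32, SE 0.70, edgeR adjusted p = 3.0e-04) and Myl2 (-6.55, with MCA101OVA at 0 counts, so that the fold depends on the prior count) were lower there (12.6% of genes lower). Between B16OVA libraries 4 to 6 and MC38, Tnnt2 (-7.15, SE 1.17, edgeR adjusted p = 7.1e-04) and Tnni3 (-4.86, or -6.75 to -4.38 with 1 library left out) were lower in B16OVA (8.49% of genes) and Nppb (4.31, SE 1.12, edgeR adjusted p = 0.0118) was higher (12.2% of genes). The Nppb call was lost without MC38 WT 2 (edgeR adjusted p = 0.0557).

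The same B16OVA libraries 4 to 6 were set against melanocytes, the pigment cells from which melanoma arises. Tnnt2 had 0.924, 0.272 and 0.765 CPM in these B16OVA libraries, against 15.2, 1.54, 3.71, 2.16 and 1.07 CPM in melanocytes 1 to 5. Nppb had 9.2, 47.4 and 24.6 CPM in B16OVA, against 28.7, 5.07, 11.3, 1.40 and 4.09 CPM in melanocytes. The groups did not overlap for Tnnt2 and overlapped for Nppb, and melanocyte 1 was the highest melanocyte library for both. Tnnt2 (-2.93, SE 0.94, edgeR adjusted p = 0.0284) and Tnni3 (-4.52, SE 0.95, edgeR adjusted p = 0.00337) were lower in B16OVA (15.4% of genes lower; the Tnni3 fold depends on the prior count, with 0 or 1 counts in every B16OVA WT library, and ran -6.41 to -4.05 with 1 library left out), and Nppb was not called (1.54, edgeR adjusted p = 0.176; 6.58% of genes higher). The Tnnt2 call was lost without B16OVA WT 4, 5 or 6 (edgeR adjusted p of 0.0632, 0.0884 and 0.0745), and without melanocyte 1 its log2 fold was -1.65, short of the fold a call needs. Without melanocyte 1, Nppb was called (2.48, edgeR adjusted p = 0.0179).

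**Figure D5:**
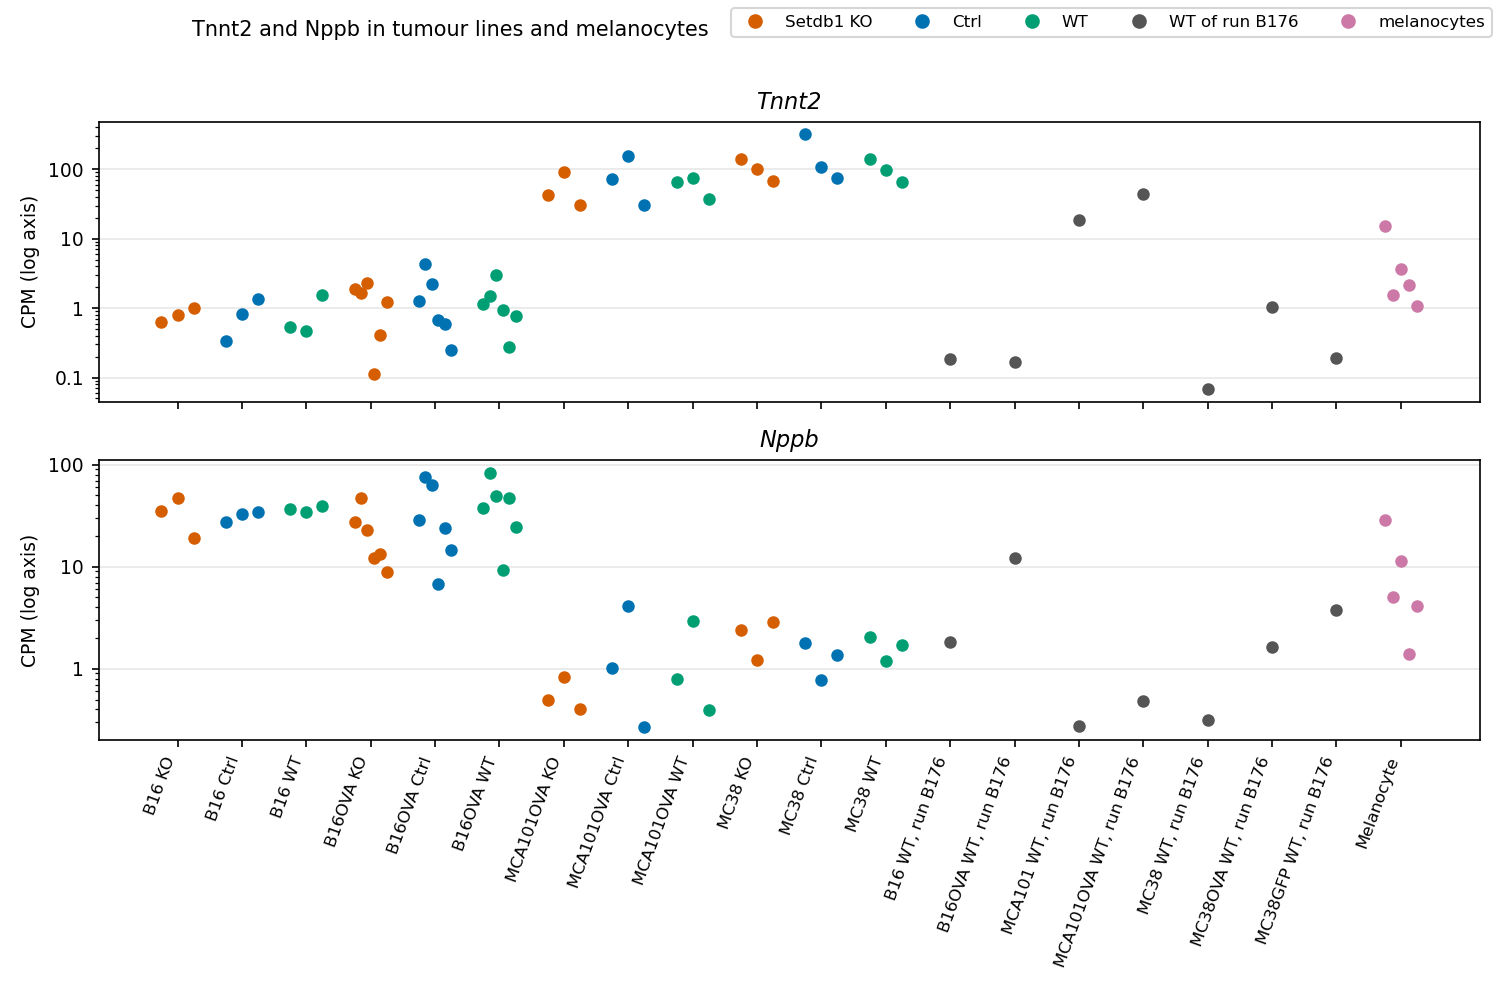
Tnnt2 and Nppb in the 57 libraries of tumour lines and melanocytes, in CPM on a log axis, 1 point per library, Setdb1 KO left of Ctrl and WT. Run B176 aside, the MC38 and MCA101OVA libraries lie at 30.5 CPM or above for Tnnt2, the B16 and B16OVA libraries at 6.85 CPM or above for Nppb, and the 3 conditions of a line overlap.

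None of the 10 genes was called in Setdb1 KO cells, although 5 could not be tested. The other 5 had enough counts (Myh7, Myl2, Tnnt2, Tnni3 and Nppb), and 0 of 5 was called in Setdb1 KO against Ctrl in each of 4 lines, at an edgeR adjusted p under 0.05. The share of all genes called was 0.684% for B16 and 1.05% for B16OVA cells, 0.351% for MCA101OVA and 0.452% for MC38, where the library set as a block raised the number of genes called higher to 128, against 76 without it. DESeq2 also called 0 of the 5 genes in each line, 4 of them having an adjusted p in MCA101OVA. At an unadjusted p under 0.05 the count was 1 in MCA101OVA, Nppb, and 0 in the other 3 lines.

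Nppb had 0.495, 0.823 and 0.400 CPM in MCA101OVA KO libraries 1 to 3, against 1.01, 4.16 and 0.267 CPM in Ctrl, and the groups overlapped (log2 fold -1.87, SE 0.74, edgeR adjusted p = 0.855; -1.81 and called, edgeR adjusted p = 0.0292, with no filter on low counts). In B16OVA, Nppb had 27.2, 47.7, 22.9, 12.3, 13.4 and 8.99 CPM in KO libraries 1 to 6, against 29.0, 76.7, 62.9, 6.85, 24.1 and 14.6 CPM in Ctrl. These groups also overlapped (log2 fold -0.77, SE 0.46, edgeR adjusted p = 0.761).

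Tnnt2 had 140, 102 and 68.1 CPM in MC38 KO, against 317.8, 106 and 75.4 CPM in MC38 Ctrl (log2 fold -0.81, SE 0.62). It had 42.5, 90.5 and 30.5 CPM in MCA101OVA KO, against 71.6, 156 and 31.1 CPM in Ctrl (-0.90, SE 0.62). MC38 Ctrl 1 was far above the other Ctrl libraries of its line, and without it the log2 fold in MC38 was 0.17. The knockout effect of a line did not differ from that of B16OVA by a call in any of the interaction tests, in which Myh7 in B16 had the one unadjusted p under 0.05 (0.0485).

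Knockout calls in the gene lists, which held cell type and tissue markers as well as related genes, were few in number. Except in MCA101OVA, they were a larger share than the 0.351 to 1.05% called among all genes. That difference was not tested and rests on 1 to 3 calls per line. The lists were chosen with earlier results of these data known, so no excess is read from it. Over the 18 lists, 1 of 72 tested entries was called in B16, 2 of 72 in B16OVA, 0 of 72 in MCA101OVA and 3 of 72 in MC38, the collagen genes Col1a1 and Col1a2 of the fibroblast list among the last. Ryr1, the skeletal calcium release channel, rose as 1 of 9 tested skeletal muscle genes in B16 (log2 fold 1.95, edgeR adjusted p = 0.0322) and likewise in B16OVA (1.44, edgeR adjusted p = 0.0246). Nebl, a Z-disc nebulin relative and 1 of 14 tested genes of its sarcomere list, rose in B16OVA (2.72, edgeR adjusted p = 0.0492), and Gata4, 1 of 8 tested cardiac transcription factors, rose in MC38 (4.97, edgeR adjusted p = 0.0193), in libraries whose Setdb1 difference did not pass the test.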

How the data were processed

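Messenger RNA was sequenced (TruSeq Stranded mRNA, per the labels' protocols), and the authors deposited raw counts per gene; the submitters' processing notes name Trim Galore, FastQC, STAR, HTSeq and the mm10 build. Strand setting was not given in the sources used here. Of 53379 gene IDs, 53274 matched symbols and exon lengths of GENCODE on GRCm38. Counts were fitted with edgeR 4.0.16 (R 4.3.3; limma 3.58.1; TMM, filterByExpr, robust quasi-likelihood), over all genes, with Benjamini-Hochberg adjustment: 48 tissue libraries together, 45 tumour libraries together with a term for the run, and WT contrasts within shared runs. DESeq2 1.42.0 was an alternative. A tissue or WT call needed an adjusted p under 0.05 and a log2 fold of at least 2, a knockout call an adjusted p under 0.05. Shares used exact permutation tests. The tests were tried on simulated data. Of 154 library pairs within groups 0 were identical. Same-numbered Setdb1 KO and Ctrl libraries deviated together in all pairs (lowest r 0.60 in B16, 0.49 in B16OVA, 0.21 in MCA101OVA, 0.35 in MC38), a pairing read from the data. The knockout fit reported did not use this pairing, save for the results given with a block. Setdb1 and the gene lists are given without the block. Tissue libraries did not deviate together (87 of 264 pairs over 0.1). Named genes were the 10, the 2 highest and 2 lowest folds of each list, called genes in knockouts and the 5 genes most like Myl7 and Myl2; atrial, fat and other marker genes given heart by heart, and single genes beside a result, were chosen after their values were seen. The 10 genes and all lists were chosen with earlier results of these data known. The values of 1 list gene that this rule selects are not reported here. The 7 libraries of run B176, 1 per line, entered no test.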

Additional observations from a re-analysis of the deposited data

Results flagged for a closer look

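In groups of 4 to 10 libraries, the library farthest from its group was compared with the gap that chance exceeds in about 1 of 20 groups; 12 of 73 groups looked at had such a library. Colon 4 stood above the other colons for Myh6 (26.0 CPM), Actc1 (11.4 CPM), Myl2 (5.57 CPM) and Tnni3 (3.93 CPM). Liver 2 stood above the other livers for Myh7 (23.3 CPM) and Myl2 (5.91 CPM), and liver 3 for Tnnt2 (3.93 CPM). Thymus 2 was apart for Nppa (43.97 CPM), stomach 4 for Actc1 (2.86 CPM) and melanocyte 1 for Tnnt2 (15.2 CPM). On the low side, lymph node 3 was apart for Tnni3 (7.69 CPM) and lung 4 for the Nppa share of Nppa plus Nppb (89.7%). None of the heart libraries was apart by this measure, since 2 of the 4 were high for Myl7 and Nppa.

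Some libraries of run B176, which entered no test, held Tnnt2 or Nppb at 1 CPM or more, and MC38OVA held both. Tnnt2 had 43.5 CPM in MCA101OVA, 18.7 CPM in MCA101 and 1.02 CPM in MC38OVA. Nppb had 12.3 CPM in B16OVA, 1.83 CPM in B16, 3.80 CPM in MC38GFP and 1.62 CPM in MC38OVA. MC38 of that run had 0.068 CPM of Tnnt2, against 64.96 to 139 CPM in the MC38 WT libraries of the other run.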

How the results depend on the processing

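Of 1164 values recomputed for 85 results under 70 other settings, 1059 kept their direction and their side of the threshold. All 10 genes stayed called higher in heart under the 20 settings run for that comparison. Counts of called genes moved most with the call rule. Genes higher numbered 1449 in heart (2382 in the fit reported), 1750 in lung (2841) and 1666 in skin (2915) with a 5 CPM filter; genes lower numbered 2062 in lung (1002) and 2329 in skin (1405) with DESeq2; with the adjusted p alone, higher and lower numbered 7493 and 8190 in heart, 8175 and 6764 in lung, and 7772 and 7194 in skin. In Setdb1 KO against Ctrl with no filter, 18 genes were lower in B16 (5), 261 higher and 35 lower in B16OVA (166 and 10), 140 and 4 in MCA101OVA (58 and 1) and 143 and 2 in MC38 (76 and 0). With the 5 CPM filter, 52 were higher in B16 (110), 66 higher and 3 lower in B16OVA, 25 higher in MCA101OVA and 45 higher in MC38. DESeq2 gave 11, 25, 4 and 1 lower in the 4 lines, and no run term 6 lower in B16OVA and 0 in MCA101OVA. With the replicate block 11 genes were lower for B16, 20 for B16OVA, 5 for MCA101OVA and 1 for MC38, and 128 higher for MC38, and the block changed no call of the 10 genes. Leaving out 1 library, higher counts ran 70 to 102 in B16, 34 to 71 in MCA101OVA and 25 to 99 in MC38, and lower counts 2 to 6, 0 to 10 and 0 to 1 in the same lines. The shares lost their call when 1 library was left out, since the exact p as computed here cannot lie below 0.0571 with 3 against 4. The difference from heart, in percentage points, ran 64.5 to 86.4 for Myl7 in lung and -9.41 to -6.43 for Myh6 in lung. In skin the difference ran -98.8 to -98.5 for Myh6 and -87.7 to -76.3 for Nppa.

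Signs turned in effects that were mostly small, none of them called. Myh7 in MC38 came to 0 without turning, and rests on at most 0.0591 CPM in the 9 MC38 libraries outside run B176. Without colon 4, liver 2, thymus 2 and thymus 3, a choice made after seeing the data, Myl2 in lung was 0.72 and Myh6 in skin 1.38 (edgeR adjusted p = 0.0344, under the fold a call needs). Tnnt2 for B16 was -0.0225 with no run term. Leaving out 1 library, log2 folds ran -0.165 to 0.0764 for Myh6 in skin; for knockouts they ran -0.214 to 0.515 for Tnnt2, -0.0119 to 0.373 for Tnni3 and -0.111 to 0.540 for Nppb in B16, -0.654 to 0.167 for Tnnt2 in B16OVA, and -2.39 to 0 for Myh7, -1.17 to 0.170 for Tnnt2 and -0.967 to 0.379 for Tnni3 in MC38. The causes were not tested. Depth limits the low genes in culture; Myh6 was at 0 counts in 51 of 57 libraries.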

Other observations

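Genes of pigment cells were also unequal between the hearts. Of the 4 genes looked up (Pmel, Dct, Tyrp1 and Mlana), Mlana had 0.036, 9.06, 13.6 and 0.040 CPM in hearts 1 to 4 and Tyrp1 had 0, 0.428, 1.10 and 0 CPM, so both were high in the same hearts as Myl7. Dct was more level, at 3.36, 4.84, 6.97 and 4.78 CPM, and Pmel had 0.073, 0.472, 1.16 and 0.131 CPM. Against the mean of the 11 other tissues Mlana (log2 fold 7.68), Tyrp1 (4.94) and Dct (3.78) were called higher in heart and Pmel (-0.60) was not.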
